A study of Drosophila melanogaster with 2 samples.

Results

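The 8 genes described here, repo, gcm, gcm2, moody, Gli, loco, nrv2 and wrapper, are genes of the fly's glia, the support cells of the nervous system. They were taken by name from the 13968 protein-coding genes of the annotation, by a rule that used no measured value, although earlier results of these data were known. The data are peaks of chromatin immunoprecipitation with sequencing (ChIP-seq) for the protein of lms (CG13424), a homeobox gene, carrying GFP at its C-terminus. The embryos came from a transgenic Drosophila melanogaster line that expresses this fusion stably, were 6 to 18 h old by the source name, and were of both sexes mixed, and the antibody was directed against GFP. There was 1 group with 2 biological replicates and no second condition, so the values below describe where peaks lay and are not tests. Chromatin came from whole embryos, so a peak at a glial gene cannot be placed in glia or in any other cell type. A separate age label does not match the source name. The sources used here do not give what drives the fusion or which cells held it.

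The genes divide by role. In the fly embryo gcm and gcm2, a neighbouring pair of zinc-binding transcription factors, switch neural precursors to the glial fate. They turn on repo, whose homeodomain protein marks nearly all glia except those of the midline. Surface glia then seal the nervous system with septate junctions to form the blood-brain barrier. moody encodes a G protein-coupled receptor of these cells and loco an RGS protein that acts with it. Gli encodes Gliotactin, a transmembrane protein of the junctions where several cells meet, and nrv2 encodes a beta subunit of the sodium-potassium pump with a role in septate junctions. wrapper encodes an immunoglobulin superfamily protein of the midline glia that enclose commissural axons.

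Each deposited peak has a summit, its point of highest signal, and a signal value, the authors' own score, which is used here only to rank peaks within 1 list. Of the 4 lists, 1 was called on each replicate alone and 1 on both replicates pooled, each with 30000 peaks. A shorter list, filtered by the irreproducible discovery rate (IDR), held 7521 peaks, which are the 7521 of highest signal in the pooled list. A gene's window was the gene and 2 kb upstream, a summit position is given in bp from a transcription start site (TSS) of the gene with minus for upstream, and a promoter summit is one within 500 bp of any annotated TSS.

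The sequences below are those under 7 of the 12 IDR summits found in the glial windows, chosen because they are the highest summit of moody, of Gli and of loco, the summit of nrv2, and all those outside untranslated sequence that hold a motif named below. Each is plus-strand sequence of dm6, the summit base with 50 bases on either side, read 5′ to 3′, and capitals mark a match to TAATTA or CAATTA, cores that homeodomain proteins bind.
moody, promoter, chrX:2050226-2050326: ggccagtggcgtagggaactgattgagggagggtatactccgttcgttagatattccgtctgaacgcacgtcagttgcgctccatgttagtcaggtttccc
moody, distal, chrX:2052030-2052130: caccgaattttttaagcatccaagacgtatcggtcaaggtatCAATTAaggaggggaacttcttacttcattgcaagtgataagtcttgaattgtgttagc
Gli, top summit, chr2L:15761993-15762093: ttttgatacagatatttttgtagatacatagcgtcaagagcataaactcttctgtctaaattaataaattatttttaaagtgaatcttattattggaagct
loco, +1707 bp, chr3R:22624877-22624977: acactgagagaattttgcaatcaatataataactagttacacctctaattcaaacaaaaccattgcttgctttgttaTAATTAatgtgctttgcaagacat
loco, +706 bp, chr3R:22625878-22625978: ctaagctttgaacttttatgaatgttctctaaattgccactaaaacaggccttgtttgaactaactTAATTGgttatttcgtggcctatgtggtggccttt
loco, -2795 bp, chr3R:22629379-22629479: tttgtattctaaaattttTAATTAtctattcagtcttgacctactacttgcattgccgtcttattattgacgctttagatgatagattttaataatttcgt
nrv2, chr2L:6797580-6797680: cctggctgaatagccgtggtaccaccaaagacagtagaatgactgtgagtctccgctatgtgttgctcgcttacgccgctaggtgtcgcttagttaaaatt
The sequences of moody at the promoter, of Gli and of nrv2 have no capitals because none of the 6 motifs searched was found in them. In the second loco sequence CAATTA is on the minus strand and so reads TAATTG. The Gli sequence differs from the others in its long run of A and T, which reached 23 bases. The longest run in the others was 16 bases at loco (-2795 bp), and the shortest of these longest runs was 5 bases, at the moody promoter.

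IDR peaks were found at some of the 8 genes, largely those with longer windows. A summit lay in the windows of moody, Gli, loco, nrv2 and wrapper, 5 of the 8 genes, while the 3 regulators repo, gcm and gcm2 had none. That is 62.5% of the glial genes, against 40.0% of all protein-coding genes (5583 of 13968). In the pooled list 7 of the 8 had a summit, all but repo, against 64.6% of all genes. Replicate 1 gave 5 of 8, the same genes as the IDR list, against 63.9%, and replicate 2 gave 8 of 8, against 71.6%. With 8 genes, each one moves the share by 12.5 percentage points. Among the 7521 highest peaks of replicate 1 alone, 5 of the 8 genes had a summit, against 39.5% of all genes. Among those of replicate 2 alone 3 did (moody, Gli and loco), which is 37.5%, against 41.4%. The glial share was thus above the share of all genes in the IDR list and in the highest peaks of replicate 1, and below it in those of replicate 2.

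Window length bears on these counts, since a longer window holds more summits. The glial windows had a median of 6987 bp, against 4164.5 bp for all protein-coding genes. Among windows of 7000 bp and over, which 3492 genes had, moody, Gli, loco and nrv2 all had an IDR summit, 4 of 4, against 61.6% of the 3492. The other members were among the 3492 genes with windows of 4165 to 6999 bp, where wrapper alone had a summit, 1 of 4, against 43.9%. The members with and without a summit were thus largely those with longer and shorter windows. Among genes whose windows were within 1.25-fold of the member's own, 44.4% had an IDR summit at the length of repo, 37.3% at that of gcm and 49.0% at that of gcm2. The lack of an IDR summit was therefore shared by more than 50% of genes of like length for each of the 3 regulators.

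Taken per length, the glial windows held 1.72 IDR summits per 10 kb, against 0.751 in the windows of all protein-coding genes and 0.547 over the chromosomes. These comparisons were not matched for window length. Genes with windows of 4165 to 6999 bp had a mean of 0.560 IDR summits each, and those with windows of 7000 bp and over 1.49. Of the 12 glial summits 6 were in loco, and 2 in Gli shared a peak interval. Among the 7521 highest peaks of replicate 2 alone, the windows held 6 summits and the density was 0.858, against 0.766 in the windows of all protein-coding genes. These included a summit at the outer start site of loco (rank 5036) that the IDR list did not hold. In the IDR list loco had the highest density of the 8, with 2.80 per 10 kb. moody followed with 2.55, Gli with 2.28 and wrapper with 1.98, and nrv2 had 0.901. The order of the first 4 rests on 6, 2, 2 and 1 summits, so 1 summit more or less would change it.

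**Figure D1:**
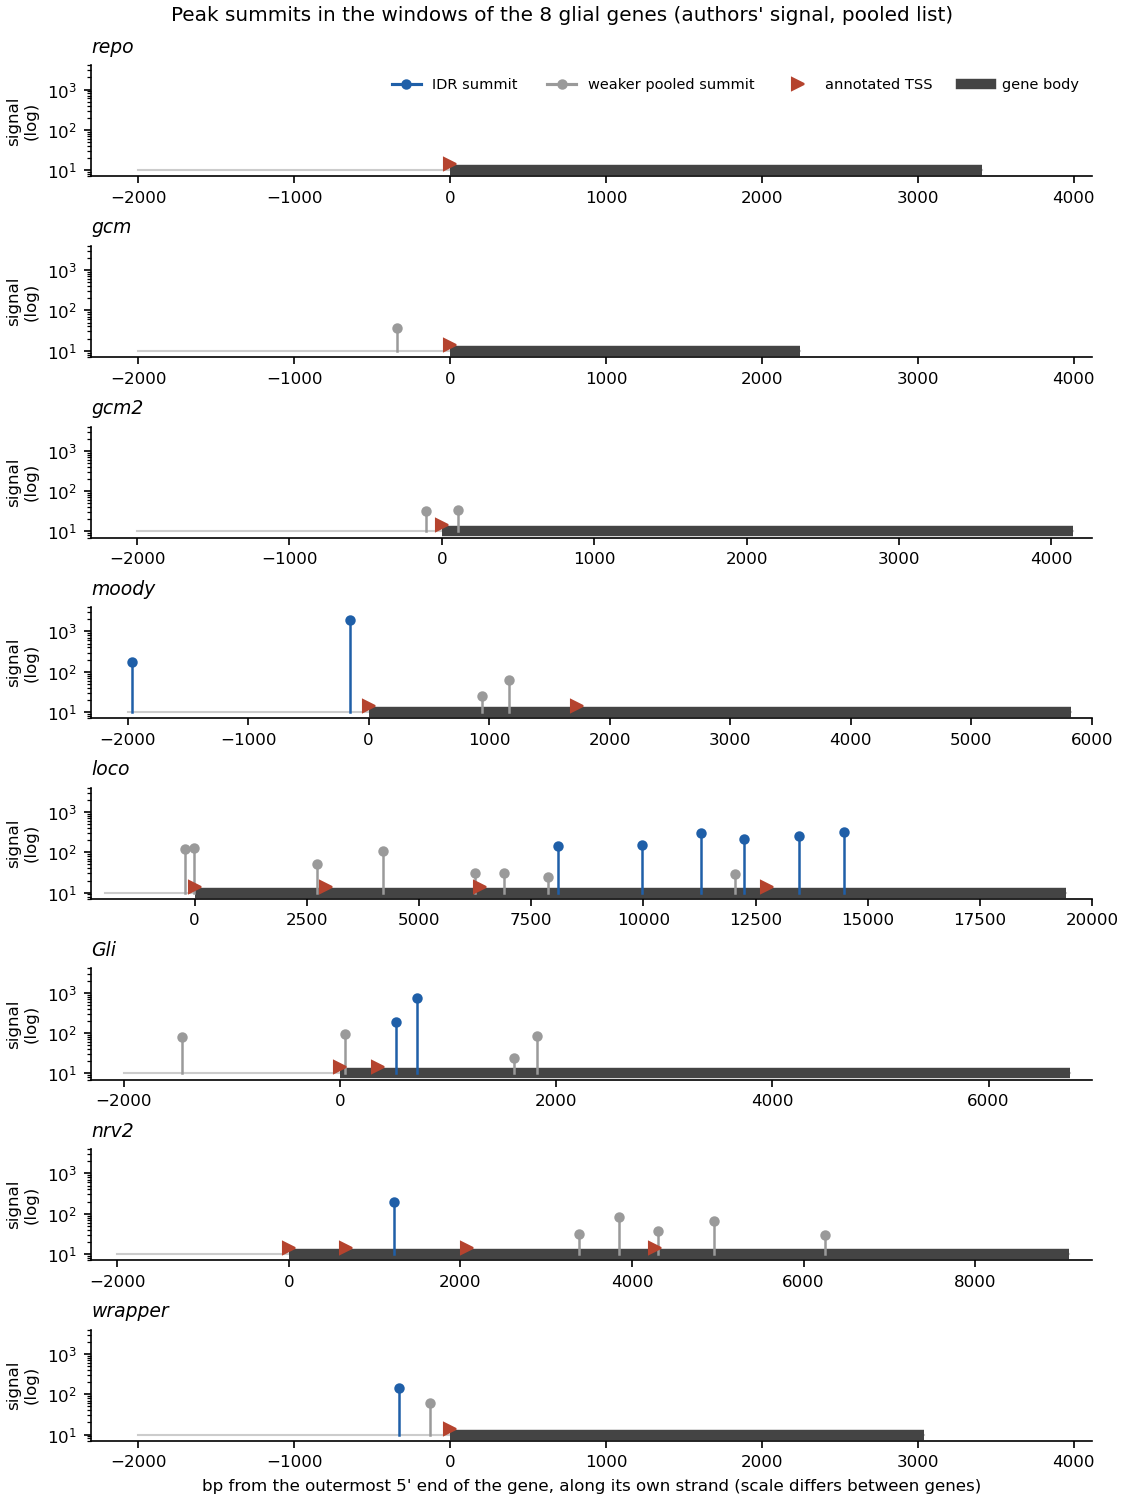
Summits of the pooled list in the windows of the 8 genes, by distance in bp from the gene's outermost 5′ end (horizontal, scale differs between genes) and by the authors' signal (vertical, log axis, stems drawn from a baseline of 10). Blue stems are IDR summits and grey stems weaker pooled summits, red triangles are annotated start sites and the dark bar is the gene. repo has no stem, gcm and gcm2 have grey stems near their start sites, moody has its tall stem of 1959 just upstream of the gene, and the 6 blue stems of loco stand around an internal start site.

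The 3 regulators of glial fate had only weak summits in their windows. For gcm (2L, 9579498 to 9581745, minus strand) the pooled list held 1 summit, 337 bp upstream of the TSS, with a signal of 37.6 and rank 21515 of 30000. Replicate 2 had a summit close by, at -365 bp with rank 10124, and replicate 1 had none in the window. For gcm2 (2L, 9608562 to 9612706, plus strand) the pooled list held 2 summits on either side of the TSS, at -105 bp (rank 24519, signal 31.8) and +103 bp (rank 23440, signal 33.7). The second had a partner in replicate 2 at +49 bp with rank 24466, and replicate 1 again had none. None of the 3 pooled summits ranked above 21515 in its list, whose 7521 highest peaks form the IDR list. The replicate 2 summit of gcm ranked higher in its own list than the partner there of the wrapper summit, which is in the IDR list (rank 13328).

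The window of repo (3R, 18236192 to 18239602, plus strand) held no summit in the pooled list or in replicate 1. Replicate 2 had 1 at -1430 bp, with rank 25569. Outside the window, the pooled list held a summit of rank 10731 at 4161 bp upstream of repo. The nearest IDR summit was on the other side, 2593 bp beyond the end of the window. That peak (rank 5557) lay 36 bp upstream of the TSS of CG7156 and 6003 bp downstream of that of repo. So the closest IDR peak to repo was at a neighbouring gene's promoter.

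gcm and gcm2 are transcribed away from each other, and the 26816 bp between their 5′ ends (2L, 9581746 to 9608561) held 3 IDR summits and 7 pooled ones. The highest of the 3, at 9598588, had a signal of 332 and ranked 2947 in the IDR list, 2669 in replicate 1 and 6231 in replicate 2. It was intergenic, 16843 bp upstream of gcm and 9974 bp upstream of gcm2, with its nearest TSS 2284 bp away at CG4382. The summit at 9595025 ranked 6136 in the IDR list, 6620 in replicate 1 and 5786 in replicate 2, about equally far from the pair at 13280 bp from gcm and 13537 bp from gcm2. The one nearest to gcm, at 9586129 and 4384 bp upstream of it, was 85 bp upstream of lncRNA:CR43621, a noncoding gene, and ranked 5594. Replicate 1 had it at rank 5187 and replicate 2 at rank 12978. Both intergenic summits were thus among the 7521 highest of each replicate, and the noncoding promoter was so in replicate 1 alone. On the far side of gcm, an IDR peak of rank 3884 lay 79 bp upstream of Mtpalpha.

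moody carried the highest peak of the 8 genes. moody (X, 2044292 to 2050120, minus strand) has 2 annotated start sites and lies within the span of CG4313 on the opposite strand. Its top summit, at 2050276, was 156 bp upstream of the outer start site in a peak 472 bp wide, with a signal of 1959 and rank 210 of 7521. Replicate 1 placed it at rank 186 with a signal of 1687 and replicate 2 at rank 350 with a signal of 283. The summit fell on the same base in the pooled list and in both replicates. The inner start site had no promoter summit in the pooled list. Replicate 2 had one there of rank 13921, 350 bp upstream.

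The second IDR summit of moody, at 2052080, had a signal of 176 and rank 5855, and lay 1960 bp upstream, 40 bp inside the edge of the window. It was in an intron of CG4313, 604 bp upstream of a TSS of that gene, and so closer to CG4313 than to moody. Its ranks were 5643 in replicate 1 and 6197 in replicate 2, with summits 34 and 110 bp from the pooled one. Among genes with windows of like length, 18.8% had 2 or more IDR summits.

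loco, which encodes the RGS protein, had 6 IDR summits, more than any other of the 8 genes. Of all protein-coding genes, 166 (1.19%) had 6 or more, and among those with windows of like length 4.08%. loco (3R, 22619968 to 22639387, minus strand) has 4 annotated start sites, the innermost 12753 bp from the outer 5′ end. All 6 summits were in introns and spanned 6374 bp around that innermost site. Of the 6, 2 lay downstream of the innermost site, at +706 and +1707 bp, and 3 upstream of it, at -509, -1461 and -2795 bp. The sixth was 1717 bp downstream of the next start site.

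The loco summits were of middle to low rank in the IDR list. The highest, at 22624927 (+1707 bp), had a signal of 313 and ranked 3161 in the IDR list, 3015 in replicate 1 and 5059 in replicate 2. The next, at 22628095 (-1461 bp), had 301 and ranked 3318, with 3300 in replicate 1 and 3933 in replicate 2. The third, at 22625928 (+706 bp), had 250 and ranked 4055, with 3950 in replicate 1 and 3461 in replicate 2. These 3 were among the 7521 highest of both replicates, and the others were so in replicate 1 but not in replicate 2. The summit at -509 bp ranked 4745 in the IDR list and 14538 in replicate 2. That at -2795 bp ranked 6570 and 22078 in the same lists. The sixth, at 22631301, ranked 6919 in the IDR list and had no partner within 150 bp in replicate 2, whose nearest summit was 232 bp away with rank 7760.

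Noncoding genes share the introns of loco. The summit at -1461 bp was 702 bp upstream of lncRNA:CR43475, and that at -2795 bp was 146 bp upstream of asRNA:CR43474, an antisense gene. Among protein-coding genes loco owned the nearest TSS of all 6. The outermost start site of loco had only weaker pooled summits, at -7 bp (signal 129, rank 7868) and -208 bp (signal 118, rank 8530). The first ranked 8917 in replicate 1 and had no partner in replicate 2, and the second ranked 10171 in replicate 1 and 5036 in replicate 2. wake, on the other side of this promoter, starts 414 and 213 bp from the same summits. At loco, then, the IDR summits lay deep in the gene and the outer promoter fell just short of the IDR list.

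Gli had the second highest peak of the 8 genes. Gli (2L, 15756002 to 15762758, minus strand) has start sites at 15762758 and 15762408. Its top summit, at 15762043, lay in an intron, 365 bp downstream of the inner site and 715 bp downstream of the outer one, with a signal of 748 and rank 1052. Replicate 1 gave it rank 1032 and replicate 2 rank 1316, with summits 0 and 1 bp from the pooled one. A second IDR summit in the same peak interval, 200 bp away at 15762243, had a signal of 187 and rank 5486. It ranked 7140 in replicate 1 and 9291 in replicate 2. The outer start site had a weaker pooled summit at +48 bp with rank 10195. The strong summit of moody was thus upstream of the gene and that of Gli inside it, and both were at nearly the same place in each replicate.

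nrv2 had 1 IDR summit, which the replicates did not share at the same place. nrv2 (2L, 6789770 to 6798862, minus strand) has 4 annotated start sites. The summit, at 6797630 in an intron and 564 bp downstream of the nearest start site, had a signal of 192 and rank 5318. Replicate 1 had it 8 bp away with rank 4718. In replicate 2 the nearest summit was 166 bp away, beyond the 150 bp used here for a match, with rank 10629 and 398 bp downstream of the start site. The other 5 pooled summits of nrv2 ranked 11769 or lower, and none had a partner in both replicates. Next to it, nrv1, which encodes another beta subunit of the pump, had a promoter peak of rank 248 at -284 bp, with rank 270 in replicate 1 and 177 in replicate 2. That summit was 2625 bp outside the window of nrv2.

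wrapper, the gene of midline glia (2R, 22379637 to 22382675, plus strand), had 1 IDR summit near the end of the list. It lay 328 bp upstream of the TSS at 22379309, with a signal of 140 and rank 7280 of 7521. Replicate 1 had it at rank 7021 and replicate 2 at rank 13328. The nearest TSS to it was that of lncRNA:CR45327, 302 bp away, so the wrapper start site was a little farther off. A weaker pooled summit stood closer to wrapper, at -127 bp with rank 15049, and replicate 2 had no partner for it.

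Across the 12 IDR summits of the 8 genes, 5 were classed as promoter and 7 as intron, against 45.9% and 36.7% of all 7521 IDR summits. A summit within 500 bp of any TSS is classed as promoter even inside a gene, and 3 of the 5, both of Gli and 1 of loco, lay in introns. The lower summit of Gli also lay in 5′ untranslated sequence of that gene, depending on the transcript. Of the 12, 6 lay upstream and 6 downstream of the gene's own nearest start site, and 4 were within 500 bp of it. The gene owned the nearest TSS of any kind for 8 of the 12, and for 11 of the 12 among protein-coding genes. The exception was the summit of moody nearer to CG4313. The median rank was 5031.5 of 7521, and 4 summits were above the median signal of the list, those at the moody promoter, the Gli intron and the 2 highest of loco. Most glial summits therefore lay in the weaker part of the IDR list.

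Replicate 2 held fewer of these summits at high rank than replicate 1. Within 150 bp, replicate 1 had a summit for 12 of 12 and replicate 2 for 10 of 12. The 10 found in both are 83.3%, against 95.4% of all IDR summits (7176 of 7521). Among the 7521 highest peaks of each replicate, 12 of 12 were matched in replicate 1 and 6 of 12 in replicate 2, against 95.2% and 81.5% of all IDR summits. Split by signal, the 4 summits in the higher part of the IDR list were all matched in this way in replicate 2, against 98.4% of all summits there. Of the 8 in the lower part 2 were matched, against 64.6%. Where matched, the summits were at most 34 bp from the pooled one in replicate 1 (median 4.5 bp). In replicate 2 they were at most 110 bp away (median 1.5 bp), with 3 of the 10 beyond 50 bp.

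**Figure D2:**
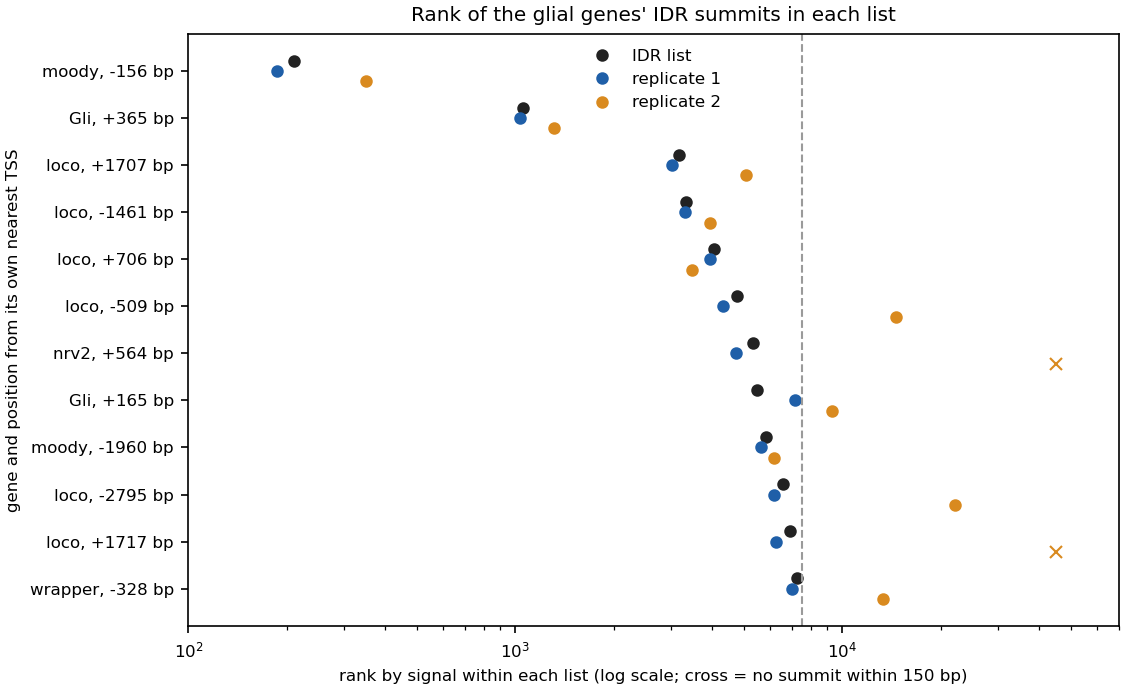
Rank by signal of the 12 IDR summits in the IDR list (black), replicate 1 (blue) and replicate 2 (orange), on a log axis with the strongest at the left, by gene and distance in bp from its own nearest start site. The dashed line marks rank 7521 and crosses mark a summit with no partner within 150 bp. Black and blue points stay left of the line throughout, whereas 4 orange points lie to its right and there are 2 orange crosses, at nrv2 and loco.

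The sequence at the glial summits was less rich in A and T than at IDR summits as a whole. In 51 bp windows the 12 summits had a mean GC content of 39.1% ± 9.62 (SD over the 12 summits, which are not replicates), against 31.5% ± 10.6 over all 7521. With the matched summit positions of each replicate alone the mean was 39.1% over 12 summits in replicate 1 and 34.7% over 10 in replicate 2. These means cover different summits and different positions. The summits of nrv2 (49.0%) and of loco at 22631301 (39.2%) had no match in replicate 2. The 10 matched there were read at that replicate's own positions, up to 110 bp from the pooled ones and 3 of them beyond 50 bp. The mean thus also depends on where the summit is placed, and the 2 parts were not separated. At 300 bp to the left and right in genome direction the mean GC content of the 12 summits was 40.8% and 46.4%, against 44.5% and 44.3% around all IDR summits. The summits differed widely, from 21.6% at loco (-1461 bp) to 49.0% at the moody promoter, at the lower summit of Gli and at nrv2. The top summit of Gli had 25.5%. Within 50 bp of the summit, mean GC content was 37.5%, against 31.8%, and within 100 bp it was 36.8%, against 33.9%, so the difference was smaller in wider windows. The longest run of A and T within 50 bp of the summit had a median of 7 bases, against 10 bases for all IDR summits.

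**Figure D3:**
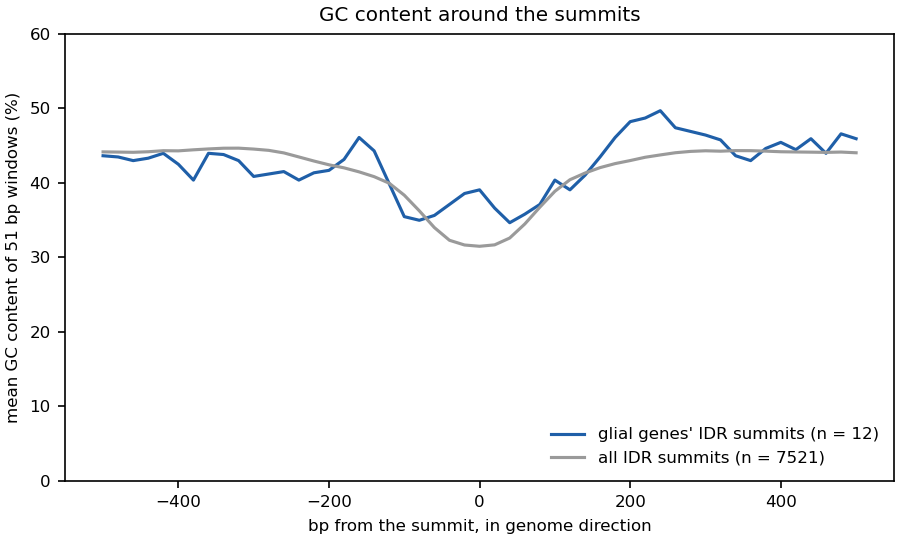
Mean GC content in percent of 51 bp windows by distance in bp from the summit, for the 12 IDR summits of the glial genes (blue) and for all 7521 IDR summits (grey). The grey line dips to 31.5% at the summit, and the blue line is uneven and stands at 39.1% there.

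Homeodomain cores were present at a minority of the glial summits. All motifs were searched on both strands within 50 bp of the summit, and matches of different motifs were allowed to overlap. TAATTA was found at 2 of the 12, both in loco (ranks 3161 and 6570), against 11.3% of all IDR summits and 6.98% of the weaker pooled ones. CAATTA was found at 2, in loco (rank 4055) and at the distal summit of moody, against 11.3% and 9.23%. GATTA, a shorter core, was found at the lower summit of Gli alone, against 21.5% and 17.4%. ATGCGGG, the core of the site that the Gcm protein binds, was at none of the 12 and at 0.226% of all IDR summits. TATCGATA, recognised by DREF, and GGTCACAC, recognised by M1BP, were also at none, against 1.58% and 0.851%. Any of the 6 was found at 5 of 12 (41.7%), against 39.8% of all IDR summits. Neither the summit at the moody promoter nor the top summit of Gli held any of the 6.

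A further 39 genes with a link to glia, in 3 lists, were read in the same way, and 24 (61.5%) had an IDR summit in the window, against 40.0% of all protein-coding genes. The lists were not limited to genes used in glia alone, so this is not a share for glial genes as such. Many had long windows, since 31 of the 39 had windows of 7000 bp and over, for which the share over all genes was 61.6%. Of 8 fate and midline regulators and receptors, 7 had an IDR summit (87.5%), and drpr, the engulfment receptor, had none. All 8 had windows of 7000 bp and over, with a median of 31439 bp. No share was taken among genes of like length to these 8. It was 51.8% at the length of moody (7829 bp) and 65.5% at that of loco (21420 bp). Both windows are shorter than the median of the 8, so these shares are not a matched background for the 87.5%. Their highest peaks were in introns of N, which encodes the Notch receptor (signal 1169, rank 526), and of pnt, an ETS factor of EGFR signalling (569, rank 1544, the highest of 13 summits). Next were an intron of sim, the master regulator of the midline (553, rank 1606), and the promoter of htl, an FGF receptor (539, rank 1655). The peaks of N, pnt and sim lay 27661, 10354 and 4166 bp from the gene's own nearest TSS. The pnt peak was nearer to a noncoding gene, 2010 bp from the TSS of lncRNA:CR46090. The N peak was nearer to CG18508, 10609 bp from its TSS. Of these 4 genes htl alone thus had its top peak within 500 bp of its own TSS. gcm, gcm2 and repo, with no IDR summit in their windows, had shorter windows of 4248, 6145 and 5411 bp.

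Of 19 septate junction and barrier genes, 12 (63.2%) had an IDR summit, against 40.0% of all protein-coding genes. Windows of 7000 bp and over, for which the share of all genes was 61.6%, were found for 12 of the 19. nrv1 (1781, rank 248) was the highest. It was followed by yrt, a FERM protein of septate junctions (1206, rank 507, in an intron at +1233 bp), and Atpalpha, the alpha subunit of the sodium-potassium pump (1132, rank 559, at -294 bp). cold, an Ly6 protein of septate junctions, had 597 (rank 1438) at +56 bp, and the same summit was 83 bp upstream of Ipk2. The top peak was within 500 bp of the gene's own TSS for 7 of the 12. The share over all genes with an IDR summit was not computed. The genes without a summit were Nrx-IV, Cont, sinu, cora, Mdr65, kune and crok. The pump thus had a promoter peak at its alpha subunit gene and at nrv1, while that of nrv2 was intronic and weaker.

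Of 12 genes of glial transporters, enzymes and other markers, 5 (41.7%) had an IDR summit, against 40.0% of all protein-coding genes. The windows of 11 of the 12 were 7000 bp and over, for which the share of all genes was 61.6%. The highest were aos, a secreted EGFR inhibitor (2118, rank 179), and Gs2, a glutamine synthetase (896, rank 807), both in introns. NetB, a netrin (724, rank 1093, in the 3′ UTR), and sli, the midline repellent Slit (680, rank 1203, in an intron), came next. The NetB peak was 59723 bp from the gene's own nearest TSS and 9719 bp from that of CG5321. None of the 5 had its top peak within 500 bp of its own TSS. Here too the share over all genes with an IDR summit was not computed, so the lists cannot be contrasted by this trait. The glutamate transporter gene Eaat1, the astrocyte gene alrm, Gat, Cyp4g15, e, axo and zyd had no IDR summit.

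**Figure D4:**
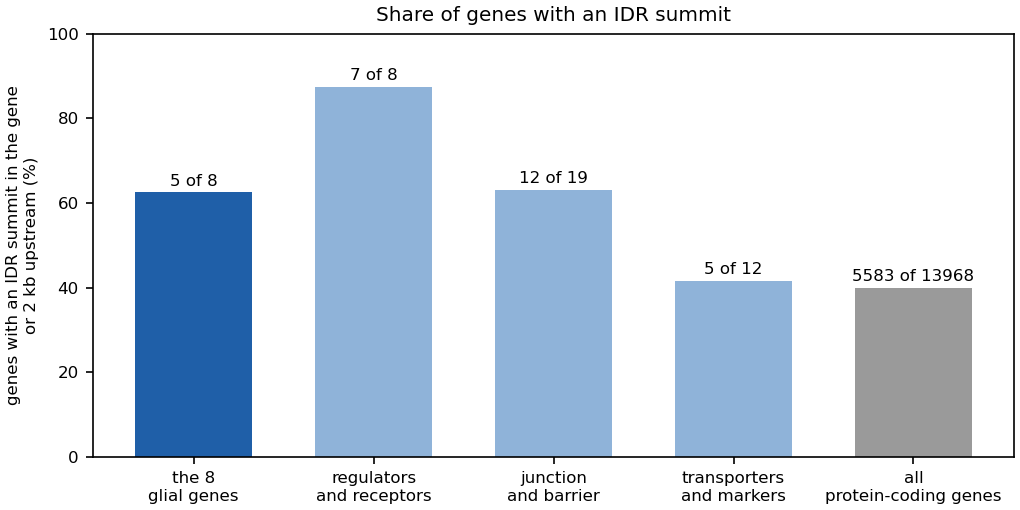
Percent of genes whose window held an IDR summit (vertical, from 0) for the 8 glial genes, the 3 further lists and all protein-coding genes, with the count above each bar. The bars stand at 62.5%, 87.5%, 63.2%, 41.7% and 40.0%, and no bar carries an error because each is a single count of genes.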

How the data were processed

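ChIP-seq covered 2 biological replicates of whole embryos, with sonicated chromatin and the dm6 assembly, per the labels. By the deposited notes, each replicate and the pool of both were run against 1 control alignment, and the IDR list derives from these calls. The aligner, the caller and its settings are not given in the sources used here. Neither is depth, so no counting interval could be made. The deposited signal is a score of unstated scale, with a median of 50.7 in replicate 1 and 13.7 in replicate 2, and was compared only by rank inside a list. The −log10 q-value deposited for each of the 7521 IDR peaks was the same, 4.37, and gave no order. Peaks below the 30000 listed per replicate and in the pool were not analysed here.

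Summits were assigned to gene windows with Ensembl release 115 (FlyBase 6.54) and sequence was read from the release 6 genome, both on dm6 coordinates. GC content was taken in 51 bp windows and motifs within 50 bp of the summit. Python 3.11.15, numpy 2.4.6, pandas 2.3.3 and matplotlib 3.10.9 were used. The counting of summits was tested on simulated peaks. The members, lists and motifs were chosen with earlier results of these data known. Named are the 8 genes, the owners of the nearest TSSs of their summits, and up to 4 genes of highest signal with an IDR summit per further list. Also named, after their values were seen, are genes at flanking peaks, genes without a summit and genes with a TSS near peaks of the further lists. Genes of like window length were compared after the peaks had been examined. No test between conditions was possible with 1 group.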

Additional observations from a re-analysis of the deposited data

How the results depend on the processing

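Of 39 alternatives tried for the counts and means over the genes, 28 stayed within the limits set for no change and 11 moved. Of 95 for single genes, 64 did so and 31 moved, and none reversed. The limits were not uniform. A distance of 366 in place of 365 bp at Gli counted as moved, and 7 genes with a summit in place of 5 as no change. These tallies therefore do not measure how far values shifted. Taking the highest peaks of 1 replicate alone gave 3 to 5 genes with a summit, in place of 5, and 6 to 12 summits, in place of 12. The 3 genes left in replicate 2 alone were moody, Gli and loco, 37.5% of the 8, against 41.4% of all protein-coding genes. IDR peaks at or above the median signal gave the same 3 genes with 4 summits, against 25.6% of all genes. All pooled peaks gave 35 summits in the 8 windows. With windows of 5 kb upstream 6 genes had a summit, gcm being added, which is 75.0%, against 49.5% of all genes. Within 500 bp of the gene's own TSSs there were 3 genes (moody, Gli and wrapper) with 4 summits. Of the 39 further genes 14 had a summit there, in place of 24. The share of all protein-coding genes was not computed for this setting, so neither count can be called high or low. loco dropped out there, its nearest IDR summit being 509 bp away. The median distance of each gene's highest summit to its own TSS was 365 bp, against 715 bp from the outermost 5′ end alone and 365 to 386 bp with either replicate left out. In 51 bp windows 2 summits held a motif, in place of 5. Mean GC content at the glial summits was 37.5%, against 31.8% at all IDR summits, within 50 bp, and 36.8%, against 33.9%, within 100 bp. Summits found in both replicates numbered 7 within 50 bp and 12 by interval overlap, in place of 10. No paired analysis was possible because there was 1 group. Depth was not given, so a window without a summit shows only that no peak was listed there.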

Other observations

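Some genes beside the glial genes had higher peaks than the glial genes themselves, and others had lower ones. Against the 1959 of moody, the promoters downstream of it had IDR peaks of signal 532 (rank 1697) at usp, which encodes a nuclear receptor, and of 200.7 (rank 5077) at Actn, which encodes alpha-actinin. nrv2 had 192, against 1781 at the promoter of nrv1. The window of gcm2 had pooled summits of 33.7 at most, whereas the promoter of GlcAT-S beyond it, a glucuronyltransferase gene, had an IDR peak of 261 (rank 3861). The cause of these differences was not tested.

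Of the replicates, replicate 2 had a summit in the windows of repo, gcm and gcm2 and replicate 1 had none there. Over all protein-coding genes 71.6% had a summit in replicate 2 and 63.9% in replicate 1.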
